A study of Rattus norvegicus with 8 samples.

Results

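Body fluids keep a steady pH because the kidney moves acid and bicarbonate across its tubules, and 4 gene families do much of that work. The vacuolar proton pump, or V-ATPase (genes named Atp6v), burns ATP in its V1 sector to drive protons through its membrane V0 sector, and it acidifies lysosomes in every cell as well as the urine in the intercalated cells of the collecting duct. Most carbonic anhydrases (Car) interconvert carbon dioxide and bicarbonate, and most Slc4a proteins carry bicarbonate across the basolateral or apical membrane. Slc26a proteins exchange chloride, bicarbonate, sulphate and related anions. The members described here are all probes whose gene symbol, found through the RefSeq accession of the probe, belongs to 1 of these 4 families. They came to 62 of 41012 probes, for 51 of the 14400 genes with a symbol. The rule itself used no measured value, but the families were chosen with earlier results of these data known.

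The arrays profiled right kidneys from 10-week-old F344/NSlc female rats. Of these kidney samples 4 came from sham-operated rats and 4 from rats nephrectomized on one side. That operation leaves a single kidney to carry the whole load. The question is which of these transcripts change their level in the kidney that stays, soon after surgery. According to the design text sampling was at 2 days, while the source names put the sham kidneys at 1 day and the nephrectomized ones at 2 days. If the source names hold, day and operation cannot be told apart in anything below. Both groups share strain, sex and age, no genetic change is named, and each RNA went onto its own array. The labels list separate samples but name no animals, so the tests reflect the spread of these samples alone.

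Levels are given as log2 signal relative to the 75th percentile of the same array, so 0 is that percentile and a step of 1 is a doubling. A log2 change is the nephrectomized mean minus the sham mean, with the standard error (SE) of limma, a linear model that shares variance information between features. A gene was called when its Benjamini-Hochberg adjusted p, taken over all 20935 features tested, was under 0.05. Across the arrays 59.5% to 66.1% of probes were well above background, none was saturated, and correlations between arrays lay between 0.986 and 0.993. The 8 arrays lay on 2 slides scanned in separate sessions, with 2 arrays of each group per slide, and on each slide the sham arrays took positions 1 and 2, so position and group cannot be told apart. The tissue showed its labelled identity: all 6 proximal tubule markers, such as the albumin receptor Lrp2, and all 3 podocyte markers were tested, and of the adrenal markers Cyp11b1, Cyp11b2 and Cyp21a1 were well above background on 0 arrays and Cyp11a1 on 1 sham and 2 nephrectomized arrays. Leukocyte genes and cell-division genes differed between the groups: 3 of 6 leukocyte markers were called lower (S100a8, S100a9 and Adgre1) and 3 of 4 division genes higher (Cdk1, Ccnb2 and Ttk). The summed linear signal of the leukocyte markers, in multiples of the 75th percentile, was 4.61 to 5.15 in sham and 3.47 to 3.88 in nephrectomized kidneys, that of the division genes 1.23 to 1.84 and 3.11 to 12.7, and their part in the values below was not tested.

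Of the 51 genes, 43 were bright enough to be tested, which took a signal well above background on 4 or more of the 8. They were 20 of 21 V-ATPase genes, 10 of 13 carbonic anhydrases, 10 of 11 Slc4a genes and 3 of 6 Slc26a genes. The others, Atp6v1e2, Car3, Car5a, Car13, Slc4a5, Slc26a2, Slc26a3 and Slc26a5, were well above background on 0 to 2 arrays, and no level is given for them. No probe here carries a symbol for Atp6v0a4, Car14 or Slc26a6, which have known places in renal acid handling, so these are not analysed here. Slc4a1ap was counted with Slc4a by its symbol, although it encodes an adaptor that binds Slc4a1 and not a transporter.

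No member of the 4 families passed the test in either direction. With limma 0 of 43 were called higher and 0 lower, where over all features 1.04% were called, 0.75% higher and 0.287% lower. At an unadjusted p under 0.05 there were 5 members higher, all of the V-ATPase, and 1 lower, Slc4a9, against 9.74% and 6.3% of all features. All 43 changes had 95% intervals inside a 2-fold change and 38 lay inside a 1.5-fold change, and no interval reached a doubling or a halving. The largest fitted changes were 0.27 for Slc4a10 and -0.35 for Slc4a9 on the log2 scale. Taken from the brightest probe of each gene, the median change was 0.06 over the members, with 28 positive and 15 negative. Over all features it was 0.01, with 52.5% positive.

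**Figure D1:**
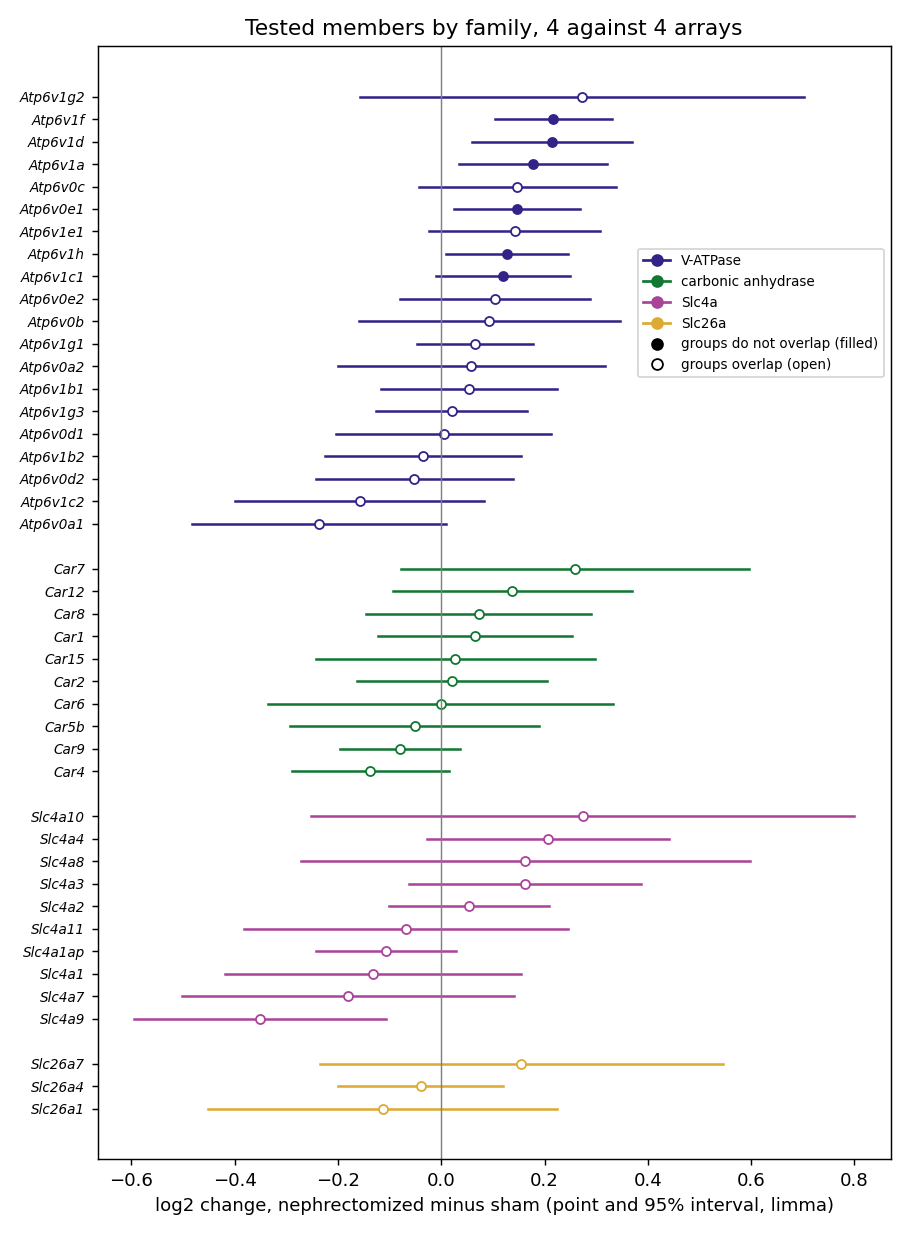
Log2 change (nephrectomized minus sham, horizontal axis) of each of the 43 tested genes, grouped by family and ordered by size, with its 95% limma interval. Filled points mark genes whose 4 nephrectomized values lie wholly on one side of the 4 sham values, and all 6 of them are V-ATPase subunits on the positive side.

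The V-ATPase held every member whose groups did not overlap, and each of those changes was small. The subunits Atp6v1f, Atp6v1d, Atp6v1a, Atp6v1h and Atp6v1c1 of V1 and Atp6v0e1 of V0 had every nephrectomized value above every sham value. The values are those of the brightest probe, and the further tested probes of Atp6v1a, Atp6v1h and Atp6v1c1 overlapped between groups. These separated subunits were 6 of the 20 tested (30%), and 0 had the reverse. Over all features 7.06% separated upward and 4.07% downward. The other families had 0 members separated in either direction. Of the 6, Atp6v0e1, Atp6v1h and Atp6v1c1 are named because of this separation, which was chosen after their values were seen. None of the 6 passed the adjusted test, and how many separate depends on the processing: 2 of 20 did with normexp background correction (7.66% of all features), 4 with a median shift (6.16%), 3 with quantile normalization (6.61%) and 3 with the mean of a gene's probes (7.3%). With normexp the share of the pump's subunits was thus near that of all features, and the 2 separated were Atp6v0e1 and Atp6v1e1. Atp6v1e1 is not among the 6, so of the 6 only Atp6v0e1 stayed apart with normexp.

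Promoter windows were compared because several subunits had small changes of one sign. They are RefSeq sequences of assembly GRCr8, from 250 bases before to 50 after the transcript start, and 36 of the 51 genes matched one, 16 of them V-ATPase genes. The GC box GGGCGG, a common binding sequence of Sp-type factors, occurred on either strand in 11 of the 16 V-ATPase windows (68.8%), 2 of 7 carbonic anhydrase windows, 1 of 8 Slc4a windows and 1 of 5 Slc26a windows, and in 33.1% of all 33469 windows. The median GC content was 57.3% in V-ATPase, 57.7% in carbonic anhydrase, 59.7% in Slc4a and 51.3% in Slc26a windows and 51.7% in all, and the part of base composition in the count was not tested. The palindrome TCACGTGA, which holds the E-box CACGTG and is the core of the element bound by the lysosomal regulator TFEB, was found in the windows of Atp6v0d1 and Atp6v0e1 and in 0.777% of all windows. The shorter CACGTG stood in those and in Slc26a2, 3 of 36, against 6.42% of all windows. CCAAT occurred in 8 of 16 V-ATPase windows and in 37.5% of all. Of the 6 separated subunits 4 had a window, and 3 of those, Atp6v1d, Atp6v1f and Atp6v0e1, held GGGCGG, while that of Atp6v1a held none of these motifs. A match here is a description of the letters and not a measured site.

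The stretches below are shown for the separated subunits with the smallest p, Atp6v1f and Atp6v1d, for the single lower member at unadjusted p, Slc4a9, and for the 3 windows with an E-box. Capitals mark the motif (GGGCGG in Atp6v1f, its reverse complement in Atp6v1d, the reverse complement of CCAAT in Slc4a9, CACGTG in the rest), and positions are counted from the transcript start.
Atp6v1f (chr4:59032870-59033021, plus strand, GC box from -4): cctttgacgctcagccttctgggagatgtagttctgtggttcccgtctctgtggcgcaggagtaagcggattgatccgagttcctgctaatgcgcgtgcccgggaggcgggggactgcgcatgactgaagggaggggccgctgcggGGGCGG
Atp6v1d (chr6:103405347-103405496, minus strand, GC box from -31): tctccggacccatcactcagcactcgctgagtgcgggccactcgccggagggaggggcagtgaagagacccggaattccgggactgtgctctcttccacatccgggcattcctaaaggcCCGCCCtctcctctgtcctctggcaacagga
Slc4a9 (chr18:28402643-28402792, plus strand, CCAAT from -143): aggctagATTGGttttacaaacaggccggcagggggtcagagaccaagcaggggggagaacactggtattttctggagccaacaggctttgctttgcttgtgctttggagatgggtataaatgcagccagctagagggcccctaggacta
Atp6v0d1 (chr19:50357283-50357312, minus strand, E-box from -52): ccccattgtggtCACGTGagatgcagtgcg
Atp6v0e1 (chr10:17007115-17007144, minus strand, E-box from 25, inside the transcript): tcgcgcgccggtCACGTGagcctctgttga
Slc26a2 (chr18:56937011-56937040, minus strand, E-box from -16): acaccaccatgcCACGTGactgccacgccg

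Among V1 subunits, Atp6v1f, which encodes subunit F of the rotating central stalk, had the smallest p of all members. Its log2 signals were 4.58, 4.61, 4.55 and 4.62 on sham arrays 1 to 4 and 4.77, 4.86, 4.80 and 4.81 on nephrectomized arrays 1 to 4. The groups did not overlap, and the gap between them was wider than the spread within either. The change was 0.22 ± 0.05 (SE), 1.16-fold higher, with a limma adjusted p of 0.0812, short of the threshold. It was 0.22 on either slide alone. Normexp moved it to 0.07, with groups no longer apart. Limma with a trended, robust prior gave an adjusted p of 0.0417, the single call of a member in any setting.

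Atp6v1d, subunit D of the same stalk, stood at 2.19, 2.31, 2.18 and 2.35 on the sham arrays and 2.44, 2.38, 2.55 and 2.52 after nephrectomy. All nephrectomized values were above all sham values, by a small margin between sham 4 and nephrectomized 2. The change was 0.21 ± 0.07 (limma adjusted p = 0.17). Atp6v1a encodes the catalytic subunit A, where ATP is split. Sham signals were 3.20, 3.23, 3.30 and 3.26 and nephrectomized signals 3.36, 3.35, 3.46 and 3.54, again without overlap. It was 1.13-fold higher (log2 change 0.18 ± 0.06, limma adjusted p = 0.214), and its other probes gave 0.10 and 0.17. With normexp the change was 0.09 and the groups were no longer apart.

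Atp6v1h encodes subunit H, a regulator that couples V1 to V0. The brightest probe read 3.75, 3.68, 3.72 and 3.76 in sham and 3.80, 3.88, 3.83 and 3.90 in nephrectomized kidneys, a separated pair of groups with a change of 0.13 ± 0.05 (limma adjusted p = 0.281). The second probe for Atp6v1h pointed the other way, with a change of -0.20 ± 0.10, and the mean of both was -0.04, so no direction is given for this gene. Atp6v1c1, the widely expressed subunit C of the stator, had sham values of 2.54, 2.51, 2.59 and 2.57 and nephrectomized values of 2.73, 2.62, 2.74 and 2.60. They did not overlap, the change was 0.12 ± 0.06 (adjusted p = 0.35 in limma), and a second probe gave 0.06. The 95% interval of Atp6v1c1, -0.01 to 0.25, includes 0.

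The B subunits, which share the catalytic head with subunit A, did not separate. Atp6v1b1 encodes the form of intercalated cells whose loss causes distal renal tubular acidosis with deafness. It was measured at -0.04, 0.18, -0.02 and -0.03 in the sham kidneys and at 0.02, -0.01, 0.13 and 0.17 in the nephrectomized ones. Sham 2 was as high as the highest nephrectomized array, and the groups overlapped, with a change of 0.05 ± 0.07 that was -0.07 on slide 1 and 0.17 on slide 2. Atp6v1b2, the form found in most cells, gave 4.55, 4.60, 4.26 and 4.41 against 4.49, 4.35, 4.42 and 4.41. Its sham values spanned the nephrectomized ones, and the change of -0.04 ± 0.08 was -0.16 on slide 1 and 0.09 on slide 2.

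The remaining V1 members were mixed. Atp6v1g3, the G subunit restricted largely to intercalated cells, had values of 7.22, 7.31, 7.20 and 7.07 and 7.21, 7.27, 7.18 and 7.23, with a change of 0.02 ± 0.06 and an interval of -0.13 to 0.17. The sham range enclosed the nephrectomized one. Atp6v1g2, a form best known from neurons, had the largest positive change of the family, 0.27 ± 0.19 (limma adjusted p = 0.525). It rested on slide 1, with 0.55 there and -0.01 on slide 2, and single values ran from -3.15 to -2.64 in sham and from -3.10 to -2.19 in nephrectomized kidneys. Atp6v1e1 (0.14), Atp6v1g1 (0.07) and Atp6v1c2 (-0.16) overlapped between groups. In all, 10 of the 12 V1 subunits tested had a positive change at the brightest probe, Atp6v1h among them, with a median of 0.12.

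In the membrane sector, Atp6v0e1, a small subunit beside the proton-carrying ring, was the single separated member. Its values were 5.21, 5.20, 5.09 and 5.16 in sham and 5.35, 5.33, 5.27 and 5.30 in nephrectomized kidneys, a change of 0.15 ± 0.05 (limma adjusted p = 0.231). All nephrectomized arrays exceeded all sham arrays, and this held with normexp, quantile normalization and a median shift. Its promoter is 1 of the 2 with TCACGTGA. The other, Atp6v0d1, which encodes the subunit joining the ring to the stalk, had a change of 0.0049 ± 0.09 with overlapping groups.

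Atp6v0a1, an isoform of the large subunit that forms the proton path, had the lowest change of the pump. The brightest probe gave 0.999, 0.97, 0.88 and 0.91 in sham and 0.89, 0.76, 0.79 and 0.38 in nephrectomized kidneys. Nephrectomized 4 was far below the rest, and without it the change moved from -0.24 ± 0.11 to -0.13. The second probe for Atp6v0a1 had a change of 0.15 ± 0.08, opposite in sign, so no direction is given. Atp6v0d2, the kidney and osteoclast form of subunit d, read 3.80, 3.74, 3.89 and 3.59 against 3.82, 3.64, 3.59 and 3.76, a change of -0.05 ± 0.08 with groups that overlap. The ring proteins Atp6v0c (0.15) and Atp6v0b (0.09) overlapped too. At the brightest probe 6 of the 8 V0 subunits had a positive change, with Atp6v0a1 counted as negative, and the median was 0.08.

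**Figure D2:**
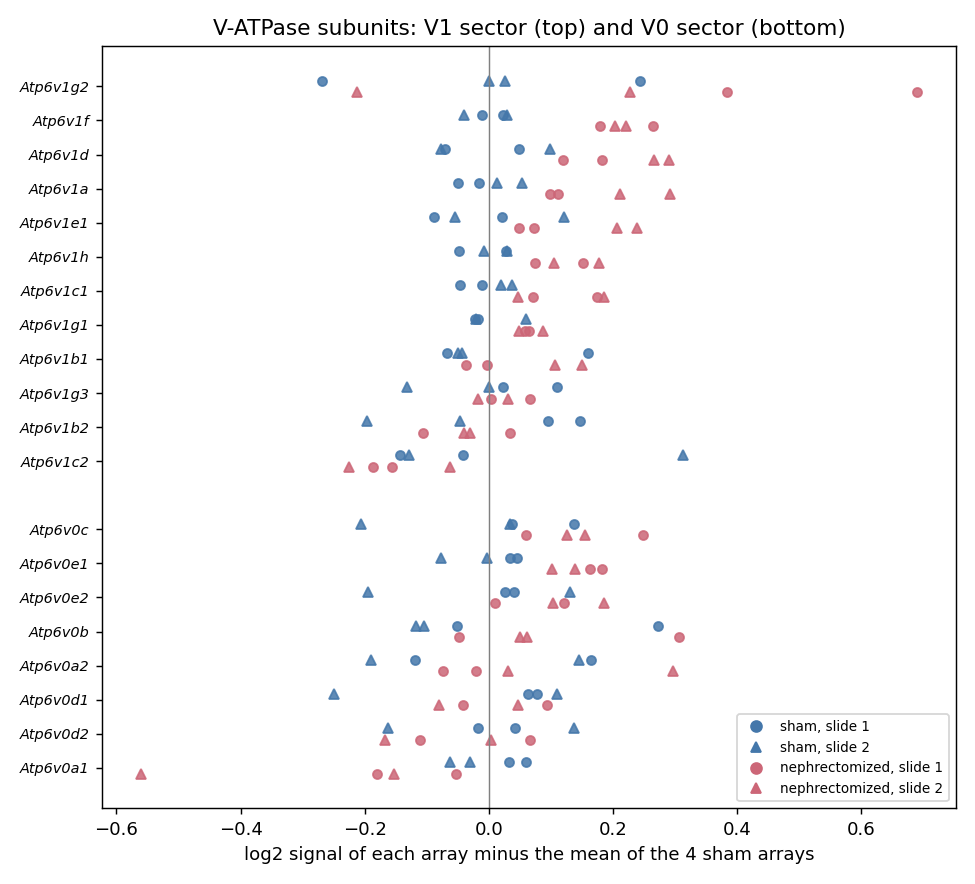
Log2 signal of each array minus the mean of the 4 sham arrays, for the 20 tested V-ATPase subunits, V1 above and V0 below, with circles for slide 1 and triangles for slide 2. In Atp6v1f the nephrectomized arrays form a cluster clear of the sham arrays on both slides, while in Atp6v1b2 and Atp6v0d2 the colours mix.

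Over the whole pump, 16 of 20 tested V-ATPase genes had a positive change at the brightest probe. That count takes Atp6v1h as positive and Atp6v0a1 as negative, although the probes of each disagreed in sign. The median of the 20 genes was 0.10 and stayed positive under every alternative run. It lay between 0.06 and 0.13 with both slides and was 0.05 on slide 1 and 0.15 on slide 2. With normexp it was 0.07 while the median over all features was 0.04, against 0.01 in the values reported here, so these medians lay closer together. The mean over the 20 genes, centred on the sham mean, was 0.02, 0.02, -0.04 and 0.00 on sham arrays 1 to 4 and 0.12, 0.04, 0.07 and 0.07 on nephrectomized arrays 1 to 4. These means did not overlap, although sham 1 at 0.02 and nephrectomized 2 at 0.04 lay close together. Lysosomes carry the same pump, and of 10 tested lysosomal genes limma called 0, with a median change of 0.06. At an unadjusted p under 0.05, 2 were higher and 0 lower (9.74% and 6.3% of all features). Hexa, a lysosomal hexosaminidase, had a change of 0.23 (limma adjusted p = 0.184, groups apart) and Ctsd, cathepsin D, one of 0.29 (adjusted p = 0.24, groups overlapping). In bulk tissue fewer cells of a type and less RNA per cell cannot be told apart, here and in all results.

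Several V-ATPase subunits exist as a kidney or intercalated-cell form and a widespread form, and the within-array log2 difference of the 2 forms asks whether their balance moved. Of 5 pairs considered, 4 could be measured. Each was tested with all 70 ways of assigning the arrays to groups (a two-sided exact permutation test, smallest possible p 0.0286), with adjustment over the 4 pairs. Atp6v1c2 minus Atp6v1c1 was -1.24, -1.10, -0.83 and -1.26 on the sham arrays and -1.47, -1.34, -1.52 and -1.22 on the nephrectomized arrays. The nephrectomized values were lower apart from array 4, and the shift was -0.28 (exact permutation p = 0.0857, adjusted 0.343). For Atp6v1b1 minus Atp6v1b2 the shift was 0.09 (exact p = 0.314, adjusted 0.629), with overlapping groups. Atp6v1g3 minus Atp6v1g1 shifted by -0.04 (exact p = 0.629) and Atp6v0d2 minus Atp6v0d1 by -0.06 (exact p = 0.8), both adjusted to 0.8. None passed, which does not show that the balances are equal.

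**Figure D3:**
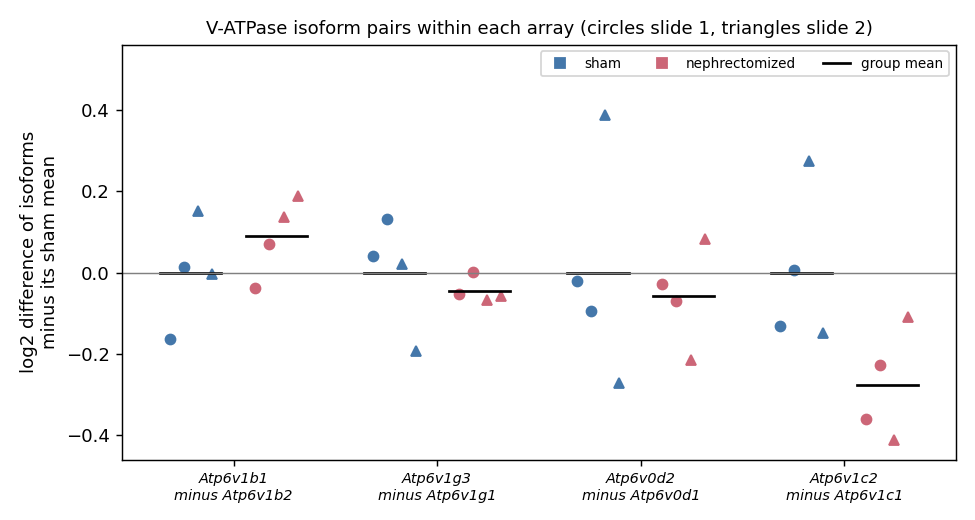
Within-array log2 difference of the specialised minus the widespread isoform for 4 V-ATPase subunits, each shown relative to its sham mean, with circles for slide 1, triangles for slide 2 and bars at group means. The nephrectomized bar lies below the sham bar by 0.28 for the C subunit, and points of both groups overlap in all 4 pairs.

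Carbonic anhydrases showed no change that passed the test. Of 10 tested, 6 had a positive and 4 a negative change, the median was 0.02, which turned to -0.01 with quantile normalization, and 0 had an unadjusted p under 0.05. Car2 is the cytosolic enzyme that supplies protons and bicarbonate inside proximal and intercalated cells. Signals for Car2 were 4.78, 4.77, 4.53 and 4.83 in sham and 4.86, 4.72, 4.69 and 4.72 in nephrectomized kidneys. Sham 3 was the lowest array and the rest lay close together, for a change of 0.02 ± 0.08 with an interval of -0.16 to 0.20, and quantile normalization turned it to -0.02. Car4 is a membrane-anchored enzyme of the proximal tubule. It stood at 5.40, 5.34, 5.37 and 5.37 on the sham arrays and at 5.31, 5.10, 5.18 and 5.34 on the nephrectomized ones. The sham values were tight and only nephrectomized 4 reached them, at the level of sham 2. The change was -0.14 ± 0.07 (limma adjusted p = 0.357), the most negative of the family, and was -0.16 on slide 1 and -0.11 on slide 2.

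Car12 and Car15 are also extracellular enzymes, anchored in the cell membrane. Car12 had values of -0.63, -0.53, -0.39 and -0.82 in sham kidneys and -0.48, -0.44, -0.58 and -0.30 in nephrectomized ones. Nephrectomized 1, 2 and 3 lay inside the sham range, and the change was 0.14 ± 0.10 (limma adjusted p = 0.55). Car15 read 3.94, 3.45, 3.85 and 3.54 against 3.71, 3.86, 3.63 and 3.66, with the sham range enclosing the nephrectomized one, and its change of 0.03 ± 0.12 turned to -0.01 with quantile normalization. Car7, a cytosolic form best known from brain, had the largest change of the family. Its signals were -3.02, -3.30, -3.36 and -3.08 in sham and -3.12, -3.23, -2.64 and -2.74 in nephrectomized kidneys, so the 2 nephrectomized arrays of slide 2 were high and those of slide 1 were not. The change was 0.26 ± 0.15 (limma adjusted p = 0.431), 0.53 on slide 2 and -0.01 on slide 1. Car1 (0.07), Car5b (-0.05), Car6 (-0.00084), Car8 (0.07) and Car9 (-0.08) filled the space between, all with overlapping groups.

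Slc4a9 had the largest change of any member. It encodes AE4, an anion exchanger of the basolateral membrane of type B intercalated cells, which secrete bicarbonate. Sham signals were 3.30, 3.23, 3.41 and 2.95 and nephrectomized signals were 2.93, 3.003, 2.74 and 2.81. Sham 1, 2 and 3 lay above all nephrectomized arrays, while sham 4, at 2.95, was below nephrectomized 2, at 3.003, so the groups overlapped. The level was 1.28-fold lower after nephrectomy (log2 change -0.35 ± 0.11, interval -0.59 to -0.11, limma adjusted p = 0.158). The sign held on both slides, at -0.30 and -0.40, and in every alternative, from -0.44 without sham 4 to -0.29 without sham 3. Its limma adjusted p lay between 0.0941 and 0.321 in the alternatives that keep both slides, and was 0.532 on slide 1 and 0.654 on slide 2.

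Slc26a4 encodes pendrin, the chloride-bicarbonate exchanger on the apical side of the same type B cells. Its signals were 6.06, 6.03, 6.10 and 5.87 in sham and 5.98, 5.98, 5.87 and 6.05 in nephrectomized kidneys. The sham range enclosed the nephrectomized one, and the change was -0.04 ± 0.07, with an interval of -0.20 to 0.12. The interval of Slc4a9, -0.59 to -0.11, overlaps with that of Slc26a4. Whether the 2 genes changed by different amounts was not tested. The 8 intercalated-cell markers were all tested and limma called 0, with 3 positive and 5 negative changes. At an unadjusted p under 0.05, 1 was higher and 0 lower (9.74% and 6.3% of all features). Foxi1, the transcription factor that specifies these cells, had -1.61, -1.62, -1.32 and -1.57 in sham and -1.15, -1.29, -1.25 and -1.18 in nephrectomized kidneys, a change of 0.31 ± 0.08 without overlap (limma adjusted p = 0.107). Hepacam2 (-0.22) and Insrr (-0.21), 2 further markers of the cell type, were lower on average with overlapping groups. The summed linear signal of the 8 markers was 18.1 to 23.3 in sham and 21.6 to 24.4 in nephrectomized kidneys, and its part in the value for Slc4a9 was not tested.

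Slc4a1, AE1, returns bicarbonate to the blood from type A intercalated cells and is also the band 3 protein of red cells. It was measured at 3.76, 3.89, 4.22 and 3.79 in sham and at 3.61, 3.89, 3.65 and 3.97 in nephrectomized kidneys. Within each group the arrays differed by more than the group means did, and the change was -0.13 ± 0.13 (limma adjusted p = 0.652), with -0.21 from a second probe. Among red-cell markers, Hbb (0.19), Alas2 (0.16), Ahsp (-0.06) and Slc25a37 (-0.19) were not called by limma and overlapped between groups, and Epb42 and Rhag were well above background on 0 arrays. The part of red cells in the value for Slc4a1 was not tested.

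Slc4a4, NBCe1, is the sodium bicarbonate cotransporter through which the proximal tubule hands reclaimed bicarbonate to the blood. Sham kidneys gave 4.68, 4.75, 4.51 and 4.75 and nephrectomized kidneys 4.78, 4.71, 4.90 and 5.13. Nephrectomized 3 and 4 were above every sham array and the other 2 were within the sham range or just above it. The change of 0.21 ± 0.10 (limma adjusted p = 0.368) was 0.39 on slide 2 and 0.03 on slide 1, and 0.12 without nephrectomized 4. Of 6 proximal tubule markers limma called 0, with 0 at an unadjusted p under 0.05 as well, and the median change was -0.07. Slc4a4 and Car4 had fitted changes of opposite sign, neither past the test.

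Slc4a2, AE2, is a widely expressed chloride-bicarbonate exchanger. Its values of 1.44, 1.29, 1.24 and 1.26 and 1.38, 1.26, 1.45 and 1.35 overlapped along nearly their whole range, with a change of 0.05 ± 0.07 that was -0.04 on slide 1 and 0.15 on slide 2. Slc4a7, NBCn1, imports sodium and bicarbonate in the thick limb and other cells. It read -2.22, -2.15, -2.13 and -1.88 in sham and -2.48, -1.87, -2.37 and -2.39 in nephrectomized kidneys. Nephrectomized 2 stood above all sham arrays and the other 3 below them, for a change of -0.18 ± 0.14 (limma adjusted p = 0.574) that normexp turned to 0.02. Slc4a10 had the largest positive change of any member, 0.27 ± 0.23, but cleared the background on only 1 sham array and 3 nephrectomized arrays, and slide 2 alone gave -0.00386. Slc4a3 (0.16), Slc4a8 (0.16), Slc4a11 (-0.07) and the adaptor Slc4a1ap (-0.11) overlapped between groups. The Slc4a median was -0.01, with 5 changes of each sign, and turned to 0.04 with normexp, which also moved the median over all features from 0.01 to 0.04.

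**Figure D4:**
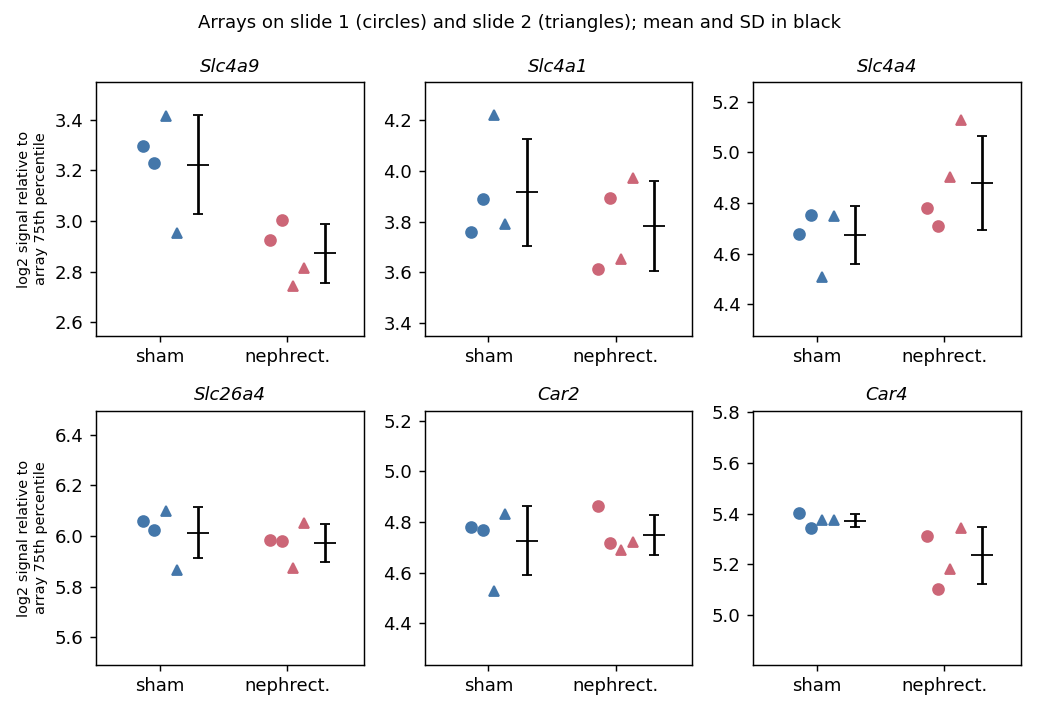
Log2 signal of every array for Slc4a9, Slc4a1, Slc4a4, Slc26a4, Car2 and Car4, with circles for slide 1, triangles for slide 2 and the mean and SD of each group (n = 4) in black. Every panel spans 1 log2 unit, so the larger step in Slc4a9 can be set against the closer group means of Slc26a4 and Car2.

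Besides pendrin, 2 Slc26a genes were tested. Slc26a1, SAT1, exchanges sulphate for bicarbonate or oxalate at the basolateral side of the proximal tubule. Signals were 5.14, 5.01, 5.13 and 4.78 in sham and 4.98, 4.48, 5.11 and 5.05 in nephrectomized kidneys. Nephrectomized 2 was well below all others, and without it the change turned from -0.11 ± 0.15 to 0.03, with -0.35 on slide 1 and 0.12 on slide 2. Slc26a7, an anion exchanger and channel of type A intercalated cells in the outer medulla, read -3.53, -3.42, -2.97 and -3.50 and -3.20, -3.01, -3.60 and -2.98. The groups overlapped, and its change was 0.16 ± 0.17 (limma adjusted p = 0.706), 0.37 on slide 1 and -0.06 on slide 2. For Slc26a1, Slc26a4 and Slc26a7 together the median was -0.04, and 0 had an unadjusted p under 0.05.

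Other genes of acid-base handling, from a list of 63 of which 51 were on the array and 46 tested, likewise gave 0 calls with limma. At an unadjusted p under 0.05 there were 4 higher and 5 lower, against 9.74% and 6.3% of all features. The median change was 0.03. Among partners of the pump, 5 tested with 4 positive, Atp6ap1, an accessory subunit that guides V-ATPase assembly, had a change of 0.11 (limma adjusted p = 0.373) with groups apart, and Tmem199, an assembly factor, one of 0.09 (adjusted p = 0.562). Among 9 genes of ammonia and glutamine handling 8 were positive. Glul, the glutamine synthetase that consumes ammonia, had 4.43, 4.27, 4.12 and 4.46 in sham and 4.25, 3.90, 4.19 and 3.79 in nephrectomized kidneys, a change of -0.29 (limma adjusted p = 0.302), and Rhcg, the ammonia channel of the collecting duct, had one of 0.19 (adjusted p = 0.337).

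Of 7 proton exchangers and potassium-proton pumps 5 had a positive change. Slc9a8, a sodium-proton exchanger of internal and apical membranes, was at -3.07, -3.28, -3.24 and -2.84 in sham and -3.50, -3.45, -3.51 and -3.69 in nephrectomized kidneys. Those groups were apart, with a change of -0.43 ± 0.11 (limma adjusted p = 0.0983). Atp12a, the colonic-type potassium-proton pump, had the largest change of the list, 0.74 ± 0.22 (limma adjusted p = 0.146), from -0.30, -0.17, 0.06 and 0.37 in sham to 0.86, 0.13, 0.86 and 1.05 in nephrectomized kidneys. Nephrectomized 2 lay within the sham range and the other 3 above it. Slc9a3, the main proton exchanger of the proximal tubule, had a change of -0.02 ± 0.13. Of 12 sensors and regulators 9 had a negative change, with a median of -0.12. At an unadjusted p under 0.05, 2 were higher and 3 lower (9.74% and 6.3% of all features). Hnf4a, a transcription factor of the proximal tubule, was among the lower ones and came nearest to the threshold. Its values were 4.39, 4.44, 4.38 and 4.39 in sham and 4.15, 4.08, 4.23 and 4.17 in nephrectomized kidneys, apart on all arrays, with a change of -0.24 ± 0.05 (limma adjusted p = 0.0741). The 13 chloride channels and partners, 8 positive and 5 negative, were led by Ostm1 (0.10) and Clcn5 (0.17), with limma adjusted p of 0.356 and 0.393.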

How the data were processed

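Total RNA was isolated on silica columns, amplified and labelled with Cy3, and hybridised to 1-colour Agilent rat arrays, per the labels' protocols. Per the file headers, the authors deposited output of Agilent Feature Extraction in version 10.5.1.1, whose processed signal is a background-subtracted intensity on a linear scale that is not normalized between arrays. Flags in the same files, read here as a score of 0 or 1 per the file headers, mark spots well above background, saturated spots and outliers. The deposited series table is on the log2 scale. Against the scanner values (correlation above 0.999, slope 1.00) its values proved to have the 75th percentile of their array subtracted and then the median of the 8 arrays for each probe, with no change of direction. Its column medians were -0.0145, -0.00231, -0.00103 and -0.00968 for sham 1 to 4 and 0.00123, 0.0124, -0.000916 and 0.0153 for nephrectomized 1 to 4.

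From the processed signal, outlier and control spots were dropped, spots of a probe averaged, log2 taken and the 75th percentile of each array subtracted. Probes well above background on at least 4 of 8 arrays were kept. The brightest probe stood for a gene, and names came from RefSeq accessions matched to the GRCr8 table (18713 of 41012 probes). The file headers name another rat assembly, so coordinates are those of the RefSeq promoter table alone. Groups were compared with limma 3.58.1 (R 4.3.3, lmFit and eBayes, no covariates), which was tested on simulated arrays, with Benjamini-Hochberg adjustment over 20935 features. The number of arrays limits the precision.

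The members, gene lists and tests were chosen with earlier results of these data known. Named with values are the 2 members of each family with the smallest p, 20 members with a place in renal acid-base transport (3 of them without a value here), the largest changes in each direction, and 3 separated V-ATPase subunits chosen after their values were seen. From the other acid-base genes, those with the smallest p in each group are named, with Slc9a3 added after its value was seen. Not every marker of the cell-type lists is reported here. Alternatives were normexp (offset 50, on the median spot signal in place of the planned mean), quantile and median normalization, other filters and probe rules, trended and robust variance, slide and replicate blocks, the series table, each array left out and each slide alone.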

Additional observations from a re-analysis of the deposited data

Results flagged for a closer look

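In 5 of 86 groups of 4 arrays checked, 1 per tested member and condition, the most distant array stood off by more of the whole range than Dixon's 95% critical value for 4 values. Chance alone gives about 4.3 such groups, and all 5 were sham groups.

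For Atp6v1g1, subunit G of the pump's stator, sham 4 was at 5.06 while the other sham arrays lay between 4.98 and 4.99. Atp6v0b, a protein of the proton ring, read 3.99 on sham 1 against 3.60 to 3.67 on the rest. Atp6v1b1, the intercalated-cell form of subunit B, was at 0.18 on sham 2 and at -0.04 to -0.02 on the others. For Atp6v0d1, which links ring and stalk, sham 3 was low at 3.71 against 4.02 to 4.07. Car6, the secreted anhydrase, was low on sham 1 at 1.56 against 1.97 to 2.01.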

How the results depend on the processing

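The alternatives gave 0 members called lower throughout and 0 called higher except with trended, robust variance, where 1 member (Atp6v1f) passed. Over all features the calls ran from 10 with the replicate block to 530 with trended, robust variance, against 217 (100 with the slide block, 20 without a filter, 394 with every array above background, 22 to 197 leaving out single arrays, 22 being without sham 2, and 0 on either slide). Between samples of the same replicate number, correlations of deviations from the group mean were 0.14, 0.01, -0.06 and -0.21. So few values, centred within groups of 4, cannot settle whether replicate numbers pair the samples. With the replicate block 0 members were called. V-ATPase subunits without overlap, a count whose alternatives were chosen after seeing the data, numbered 2 of 20 with normexp (7.66% of all features separated upward), 3 with quantile normalization (6.61%), 3 with the mean of a gene's probes (7.3%), 6 to 8 leaving out single arrays (8.46% to 9.58%), 9 on slide 1 (24.1%) and 11 on slide 2 (22.6%).

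The V-ATPase median ran from 0.058 (without sham 3) to 0.13 leaving out single arrays, and was 0.050 on slide 1 and 0.15 on slide 2. The carbonic anhydrase median was -0.014 with quantile normalization and -0.024 on slide 1, and the Slc4a median -0.083 on slide 2. The difference of Atp6v0d2 and Atp6v0d1 ranged from -0.15 to 0.072 leaving out single arrays (the latter without sham 3) and was 0.0096 on slide 1, and that of Atp6v1g3 and Atp6v1g1 was 0.024 on slide 2.

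Members that turned sign, none of them called, did so as follows. On slide 1 these were Atp6v1b1 (-0.066), Atp6v1g3 (-0.031), Car7 (-0.012), Slc4a2 (-0.041) and Slc4a7 (0.012). On slide 2 they were Atp6v1b2 (0.086), Atp6v1g2 (-0.00565), Car15 (-0.044), Slc26a1 (0.12), Slc26a7 (-0.058) and Slc4a10 (-0.00386). Quantile normalization turned Atp6v1g3 (-0.00673), Car15 (-0.011) and Car2 (-0.023), normexp turned Slc4a7 (0.024), and the mean of probes Atp6v1h (-0.036). Leaving out single arrays gave ranges that cross 0 for Atp6v1b2 (-0.10 to 0.013), Atp6v1g3 (-0.023 to 0.057), Car15 (-0.055 to 0.11), Car2 (-0.045 to 0.055) and Slc26a1 (-0.19 to 0.028). The cause was not tested in any case. Leaving a slide out leaves 2 arrays per group.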
